A study of Homo sapiens with 12 samples.

Results

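RNA of 10 genes of the epidermal growth factor receptor (EGFR) family was measured in CAL27 and HSC3 cells, with and without induced MUC1-C silencing. The genes were chosen by symbol out of the 39368 symbols counted, as 3 receptors (EGFR, ERBB2 and ERBB3) and 7 ligands (AREG, EREG, HBEGF, TGFA, BTC, EPGN and NRG1), and all 10 passed the filter on low counts in both lines. CAL27 and HSC3 are established HPV-negative lines of head and neck squamous cell carcinoma (HNSCC). Both carried tet-MUC1shRNA, a lentiviral vector that makes an shRNA to MUC1 in the presence of doxycycline (DOX). The 4 groups were CAL27 and HSC3 cells treated with vehicle (0.1% DMSO) or with 500 ng/mL DOX for 7 days, with 3 libraries from triplicate cultures in each. The vehicle cells carried the vector too, so the comparison within a line is DOX-induced silencing against the same uninduced cells. No libraries of DOX-treated cells with a control shRNA were analysed here, so responses to DOX itself and to the silencing cannot be told apart. The labels grow CAL27 cells in DMEM and HSC3 cells in MEM, so cell line and medium cannot be told apart either, and each line was a single puromycin-selected population.

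EGFR, ERBB2 and ERBB3 are receptor tyrosine kinases that pair with each other once a ligand is bound. Amphiregulin (AREG), epiregulin (EREG), HB-EGF (HBEGF), TGF-α (TGFA), betacellulin (BTC) and epigen (EPGN) are made as membrane precursors, are released by metalloproteases and bind EGFR, while neuregulin 1 (NRG1) binds ERBB3. The receptors signal through RAS and ERK and through PI3K, and EGFR is the target of cetuximab in HNSCC. Per the study, EGFR is among the kinases that phosphorylate the cytoplasmic tail of MUC1-C.

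MUC1 itself was lower with DOX in every library. The vehicle libraries of CAL27 held 58.4, 53.1 and 54.3 CPM (a count scaled to the size of its library) and the DOX libraries 2.92, 2.76 and 3.25. The HSC3 libraries held 1.66, 1.97 and 1.64 CPM (vehicle) and 0.310, 0.267 and 0.132 CPM (DOX), so the silencing in HSC3 started from a level 31.7-fold lower than in CAL27. The log2 difference was -4.21 (SE 0.067) in CAL27 and -2.88 (SE 0.376) in HSC3, with edgeR adjusted p = 1.6e-19 and 2.0e-04. The HSC3 DOX libraries held 46, 36 and 16 counts of MUC1, with several counts per RNA molecule (given below). The size of the fall in HSC3 thus rests on few molecules. All levels are CPM normalized across the 12 libraries by TMM, and calls rest on p-values adjusted by Benjamini-Hochberg across every gene in the fit, at 0.05, counted also with a fold change (FC) above 2.

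Total counts ran from 89730914 to 169065103 per library. Several counts can stand for 1 RNA molecule, and the estimate was 2.08 to 2.80 counts per molecule in CAL27, 3.43 to 5.99 in HSC3 with vehicle and 7.58 to 15.3 in HSC3 with DOX. The highest, 15.3, was HSC3 DOX replicate 1, which also stood apart from both other libraries of its group (chi-square per degree of freedom 141 and 90.9, against 7.71 to 31.4 in all other pairs). Of 12 squamous epithelial markers, 12 were above 1 CPM in every group, and their summed level was lower with DOX, at 4772 to 5074 CPM against 8384 to 8783 in CAL27 and at 6357 to 7378 against 10561 to 11503 in HSC3. The markers did not move together. EPCAM was higher with DOX (164 against 124 CPM in CAL27 and 102 against 55.7 in HSC3), and CDH1 was 299 against 291 and 169 against 171. The 15 markers of other cell types summed to 7.50 to 31.2 CPM. COL3A1 had no count in any library and PTPRC was at most 0.058 CPM in the mean of a group. Above 1 CPM in the mean were 5 of the 15 in CAL27 with vehicle, 4 with DOX and 2 in each HSC3 group. COL1A1 was among these in all 4 groups, at 4.59 to 8.40 CPM. The endothelial CDH5 was 14.6 and 9.97 CPM in CAL27 with vehicle and DOX. The part of the marker levels in the results was not tested. Counts divided by the counts per molecule were fitted as an alternative, in which the receptors and ligands kept their calls under DOX. Beyond that, the part of the counts per molecule was not tested. In bulk RNA, a change in the share of cells that express a gene and a change in RNA per cell cannot be told apart.

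The ligands AREG, EREG, HBEGF and NRG1 moved in opposite directions in the 2 lines with DOX. The DNA just upstream of the start sites of the first 3 is given here for that reason. The stretches are the 100 bases before the start site from RefSeq on GRCh38.p14, on the strand of the gene, at chr4:74445036-74445135 (AREG, + strand), chr4:74365045-74365144 (EREG, + strand) and chr5:140346604-140346703 (HBEGF, - strand). Capitals mark a match to the motif TGACGTCA of CREB/ATF factors.
AREG: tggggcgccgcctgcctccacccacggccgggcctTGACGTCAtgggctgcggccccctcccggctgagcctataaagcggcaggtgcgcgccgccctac
EREG: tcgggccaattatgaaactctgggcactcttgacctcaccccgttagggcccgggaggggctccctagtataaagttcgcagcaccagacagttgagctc
HBEGF: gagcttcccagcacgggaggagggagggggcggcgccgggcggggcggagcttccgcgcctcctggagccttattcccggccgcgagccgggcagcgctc

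The whole windows run from 250 bases before to 50 after a start site. Both strands were searched for TGACGTCA, for TGANTCA (a loose AP-1 motif) and for the STAT motif TTCNNNGAA, where N is any base. These are held by 1.85%, 7.71% and 7.66% of 35116 promoters of this length. The AREG match starts 65 bases before the start site, and neither of the other motifs is in that window. The windows of EREG, HBEGF, TGFA, BTC and EPGN hold none of the 3 motifs. ERBB2 has 1 match to the loose AP-1 motif (TGATTCA), and the window of a second EGFR start has 2 (TGAGTCA and TGACTCA). Windows of 8 of the 10 genes were searched. ERBB3 had no window to search, and NRG1 was left out of the search, though it too moved in opposite directions.

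EGFR was the most abundant of the receptors by a wide margin, and among the most abundant transcripts of both lines. It was 3389, 3449 and 3458 CPM in CAL27 with vehicle and 5947, 5619 and 6044 CPM in HSC3 with vehicle. Its counts made up 0.309% to 0.586% of all counts over the 4 groups, and with vehicle it ranked 90 of 38934 genes in CAL27 and 53 in HSC3 by CPM per kilobase (kb) of exon. ERBB2 and ERBB3, the ligand-less partner and the kinase-impaired neuregulin receptor, were far below it. With vehicle, per kb of exon, EGFR was 215 ± 2.33 (SD, n = 3) in CAL27, where ERBB2 was 6.61 ± 0.159 and ERBB3 was 6.26 ± 0.210. In HSC3 with vehicle the 3 receptors were 368 ± 13.9, 7.26 ± 0.278 and 5.89 ± 0.238 CPM per kb. ERBB2 and ERBB3 overlapped in CAL27 but not in HSC3, where ERBB2 was the higher with vehicle and ERBB3 the higher with DOX.

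The ligands separated the 2 lines. AREG was 8.92, 8.42 and 9.52 CPM in CAL27 with vehicle and 783, 799 and 825 in HSC3 with vehicle, a log2 difference of 6.48 (SE 0.080). HBEGF was 6.10, 5.72 and 4.88 CPM against 229, 259 and 256 (5.48, SE 0.091). EREG was 36.7, 32.4 and 33.4 CPM against 639, 594 and 727 (4.26, SE 0.119). All 3 were thus between 19.1-fold and 89.6-fold higher in HSC3, with no overlap between the lines. EPGN was 15.4-fold higher, from 0.329 ± 0.078 to 5.06 ± 0.475 CPM (SD, n = 3), and TGFA was 7.63-fold higher, from 36.4 ± 3.15 to 278 ± 13.1. BTC went the other way and was 3.64-fold lower in HSC3, at 0.918 ± 0.180 CPM against 3.36 ± 0.359. NRG1 and EGFR were higher in HSC3 by 1.88-fold and 1.71-fold. For these 8 genes the edgeR adjusted p lay between 4.4e-17 and 5.9e-06.

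Over all, 7 of the 10 genes were higher in HSC3 with vehicle, where 30.6% of the 20694 genes tested were, and 1 was lower, where 32.3% were. Past FC>2, 5 were higher (13.2% of genes) and BTC was lower (18.7% of genes). More than 8-fold higher were 4 (AREG, EREG, HBEGF and EPGN), where 2.77% of genes were. The lines did not overlap for 9 of the 10, where 74.3% of genes did not. ERBB2 (log2 difference 0.13, 95% interval -0.05 to 0.32, adjusted p = 0.19) and ERBB3 (-0.09, -0.20 to 0.02, adjusted p = 0.16) were not called by edgeR. Both results changed with the processing. Scaling to library totals, which moves the median of all genes from -0.12 to -0.39, gave -0.14 for ERBB2 and -0.36 for ERBB3 (adjusted p = 0.20 and 2.1e-05). The other 8 genes kept their direction and their call in the 18 alternatives run. The plot of CPM in each library shows the gap between the lines in AREG, EREG, HBEGF, TGFA and EPGN.

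**Figure D1:**
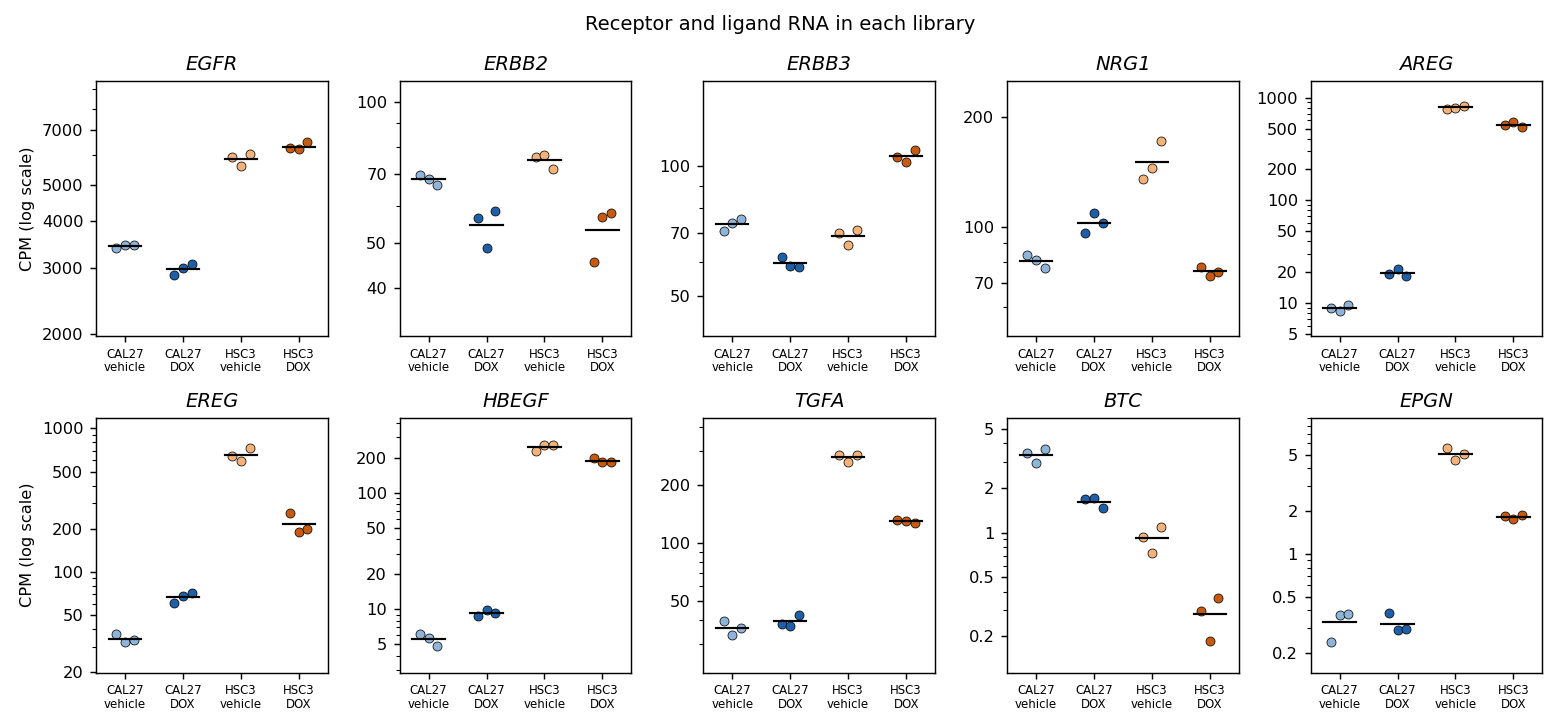
CPM (log axis, its range set for each gene) of the 10 genes in each of the 12 libraries, with a point per library and a line at the mean of 3. AREG sits at 8.42 to 9.52 CPM in CAL27 with vehicle and at 783 to 825 in HSC3 with vehicle, while ERBB2 and ERBB3 with vehicle lie between 65.8 and 77.1 CPM in both lines.

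In CAL27 cells, DOX was followed by higher RNA for 4 ligands and by lower RNA for all 3 receptors and BTC. AREG went to 19.3, 21.5 and 18.4 CPM, a 2.20-fold rise. EREG went to 60.6, 68.3 and 71.0 CPM, a 1.95-fold rise, and HBEGF to 8.78, 9.90 and 9.29 CPM, a 1.67-fold rise. In none of these did a DOX library fall within the range of the vehicle libraries. NRG1 rose from 83.7, 80.9 and 76.8 to 95.8, 109 and 102 CPM, or 1.27-fold. The log2 differences were 1.13 (SE 0.072), 0.96 (SE 0.060), 0.74 (SE 0.091) and 0.34 (SE 0.049), with edgeR adjusted p = 1.1e-10, 7.5e-10, 1.2e-06 and 9.1e-06.

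BTC, which binds ERBB4 as well as EGFR, fell 2.09-fold in CAL27, from 3.46, 2.96 and 3.66 to 1.68, 1.71 and 1.46 CPM (edgeR adjusted p = 1.4e-06). The receptors fell by less. EGFR went to 2876, 3004 and 3062 CPM, below each vehicle library, with a log2 difference of -0.21 (SE 0.043, adjusted p = 0.00048). ERBB2 was 69.8, 68.4 and 66.5 CPM with vehicle and 56.6, 48.8 and 58.4 with DOX (-0.32, SE 0.054, edgeR adjusted p = 7.2e-05). ERBB3 was 70.7, 73.8 and 75.5 CPM with vehicle and 61.7, 58.7 and 58.5 with DOX (-0.30, SE 0.042, edgeR adjusted p = 6.7e-06). TGFA overlapped between the groups, at 33.3 to 39.6 CPM with vehicle and 37.4 to 42.7 with DOX (0.11, 95% interval -0.02 to 0.24, edgeR adjusted p = 0.16). EPGN was near its limit in CAL27, at 30 to 46 counts per library, and its log2 difference was -0.03 (-0.73 to 0.68, edgeR adjusted p = 0.96).

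The count in CAL27 was 4 genes higher and 4 lower, where 22.6% of the 19239 genes tested were higher and 21.8% lower. Called in either direction were 8 of the 10, beside 44.5% of all genes. Past FC>2 were AREG, among 1.31% of genes higher, and BTC, among 5.11% lower. EREG lay just under that limit and passed it when vehicle replicate 1, or the DOX column numbered 4, was left out, and BTC went just under it, at -0.99, without the column numbered 6. The vehicle and DOX libraries did not overlap for 8 of the 10 genes, where 51.8% of all genes did not. The median log2 difference was 0.04 over the 10 genes and -0.01 over all genes.

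In HSC3 cells all 7 ligands were lower with DOX, the reverse of CAL27 for AREG, EREG, HBEGF and NRG1. BTC was lower in both lines. EREG fell 3.04-fold, from 639, 594 and 727 to 258, 190 and 199 CPM, with the highest DOX value in replicate 1. TGFA fell 2.15-fold, from 286, 263 and 286 to 132, 130 and 127 CPM. NRG1 fell 2.01-fold, from 136, 145 and 172 to 77.7, 73.2 and 75.3 CPM. All 3 were thus lowered past FC>2 without overlap of the groups. NRG1 was just past that limit, and its log2 difference ran from -1.08 to -0.90 over the 13 alternatives. The log2 differences were -1.60 (SE 0.113), -1.11 (SE 0.061) and -1.01 (SE 0.087), with edgeR adjusted p = 2.6e-06, 5.4e-07 and 1.1e-05.

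AREG and HBEGF fell by less in HSC3. AREG was 783, 799 and 825 CPM with vehicle and 537, 575 and 516 with DOX (-0.57, SE 0.062, edgeR adjusted p = 5.6e-05). HBEGF was 229, 259 and 256 CPM with vehicle and 201, 185 and 183 with DOX (-0.39, SE 0.067, edgeR adjusted p = 0.0012). Both remained far above their CAL27 levels. EPGN fell 2.78-fold, from 5.56, 4.61 and 5.02 to 1.84, 1.77 and 1.88 CPM (edgeR adjusted p = 8.2e-05). BTC fell 3.27-fold, but on 60 to 130 counts with vehicle and 25 to 44 with DOX, at several counts per molecule (-1.71, SE 0.424, adjusted p = 0.011), and without vehicle replicate 3 it was not called (-1.56, adjusted p = 0.062).

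The receptors split in HSC3. ERBB3 rose 1.52-fold, from 69.9, 65.8 and 71.2 to 105, 102 and 109 CPM (0.61, SE 0.066, edgeR adjusted p = 5.8e-05). ERBB2 fell 1.41-fold, from 76.1, 77.1 and 71.7 to 45.4, 56.6 and 57.8 CPM, with the lowest value in DOX replicate 1 (-0.50, SE 0.097, edgeR adjusted p = 0.0028). EGFR was 6277, 6219 and 6498 CPM with DOX, above each vehicle library, but the difference of 0.10 (95% interval -0.02 to 0.23) was not called (edgeR adjusted p = 0.23).

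In HSC3, 8 genes were lower, where 15.4% of the 18021 genes tested were, and 1 was higher, where 13% were. Past FC>2, 5 were lower (EREG, TGFA, BTC, EPGN and NRG1), where 4.4% of genes were, and 0 were higher, where 1.58% were. With HSC3 DOX replicate 1 left out, 8 lower and 1 higher were again called. The number past FC>2 was 3 without vehicle replicate 3, and 4 without DOX replicate 2 or with the replicate block. All 10 genes had groups that did not overlap, where 42.6% of genes did not. The median log2 difference was -0.79 over the 10 genes and -0.01 over all genes. The plot of both DOX responses sets these values against those in CAL27.

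**Figure D2:**
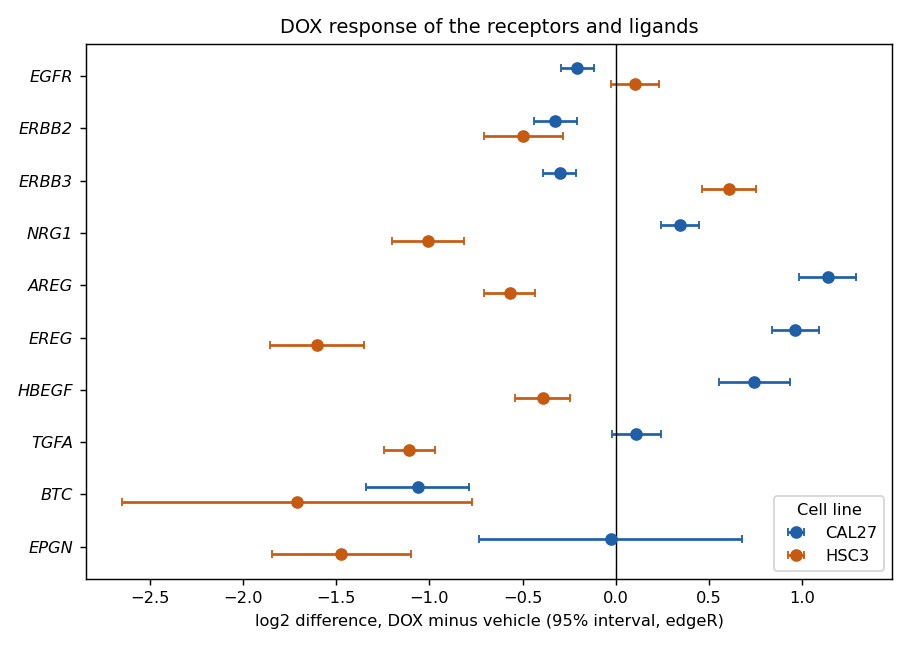
Log2 difference between DOX and vehicle (x axis) for each gene in CAL27 and HSC3, with points at the edgeR estimate and bars for the 95% interval. AREG, EREG, HBEGF and NRG1 lie above 0 in CAL27 and below 0 in HSC3, ERBB3 does the opposite, and ERBB2 and BTC lie below 0 in both.

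The difference between the lines in the DOX response was tested as the interaction of line and DOX over all 12 libraries. It was -2.56 (SE 0.150) for EREG, -1.70 (SE 0.092) for AREG, -1.35 (SE 0.109) for NRG1 and -1.13 (SE 0.111) for HBEGF, the 4 ligands that rose in CAL27 and fell in HSC3. TGFA and EPGN, which fell in HSC3 and were not called in CAL27, differed by -1.22 (SE 0.096) and -1.44 (SE 0.304). ERBB3 differed by 0.91 (SE 0.075) and EGFR by 0.31 (SE 0.065). Across these 8 genes the edgeR adjusted p lay between 2.1e-08 and 0.0030. For ERBB2 (-0.17, 95% interval -0.43 to 0.09, adjusted p = 0.38) and BTC (-0.65, -1.39 to 0.09, adjusted p = 0.22) no difference in response was called by edgeR.

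Of the 10 genes, 6 had a response lower in HSC3 than in CAL27, where 12.3% of the 20694 genes tested did, all 6 past FC>2, where 3.02% did. A response higher in HSC3 was called for 2, where 8.25% of genes had one, and for 0 past FC>2, where 2.19% did. Called higher in CAL27 and lower in HSC3 were 4 of the 10, where 2.37% of the 17164 genes tested in both lines were. The opposite was called for ERBB3 alone, where 1.19% of genes were, and ERBB2 and BTC were lower in both lines, where 8.62% were. None of the 10 was higher in both, where 7.82% were. The 6 and 2 interaction calls were made again in each of the 17 alternatives run.

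Set per kb of exon so that genes can be compared, the ligands of HSC3 were mostly AREG. The 7 ligands summed to 25.8 ± 1.37 CPM per kb (SD, n = 3) in CAL27 with vehicle and 40.3 ± 1.84 with DOX. In HSC3 the sum was 751 ± 27.98 with vehicle and 462 ± 19.2 with DOX. The vehicle sums thus stood 29.1-fold apart, and the DOX sums 11.5-fold. AREG took 21.1% of the sum in CAL27 with vehicle, 29.8% with DOX, 65.1% in HSC3 with vehicle and 71.5% with DOX. The share of TGFA in CAL27 went from 28.6% to 19.9% and that of EREG from 23.1% to 28.9%. In HSC3 EREG went from 15.2% to 8.17% of the sum, and HBEGF from 11.03% to 13.7%. NRG1, which does not bind EGFR, took 14.6% and 11.9% in CAL27 and at most 1.03% in an HSC3 library.

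The order of the 10 genes per kb also differed between the groups. EGFR was the highest in 3 of them. With vehicle in HSC3 it came after AREG, whose level was 1.28 to 1.38 times that of EGFR in the same library, against 0.771 to 0.897 times with DOX and 0.024 to 0.069 times in CAL27. On the length of the MANE Select transcript, the reference transcript of each gene, these ratios in HSC3 were 1.06 to 1.14 and 0.637 to 0.742, so the order was kept. In CAL27 with vehicle TGFA, ERBB2, ERBB3, EREG and AREG followed EGFR, and the last 4 of these overlapped from each to the next. TGFA ranked 2 there per union of exons and 4 per MANE Select length. AREG and EREG ranked 2 and 3 with DOX and overlapped with each other. BTC and EPGN were the 2 lowest in every group, with EPGN last in CAL27 and BTC last in HSC3.

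**Figure D3:**
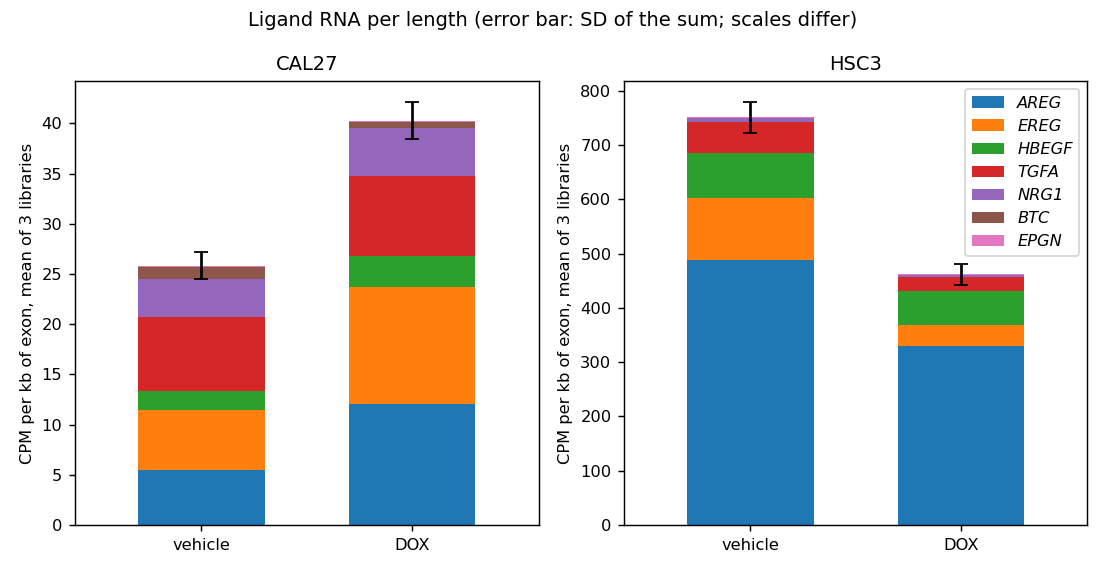
Mean CPM per kb of exon of the 7 ligands, stacked, with vehicle and with DOX in CAL27 (left) and HSC3 (right, on another scale), with error bars for the SD of the sum over 3 libraries. The sum goes from 25.8 to 40.3 in CAL27 and from 751 to 462 in HSC3, and AREG is the largest part of both HSC3 bars.

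AREG, EREG, EPGN and BTC lie together on chromosome 4 (GENCODE v44 on GRCh38), at 74445136 to 74455005, 74365145 to 74388749, 74308470 to 74316789 and 74744759 to 74794523. The first 3 are on the + strand and BTC is on the - strand. Within 500 kb of the block, 7 other genes were tested in HSC3 and 6 of them in CAL27. The chemokine genes CXCL1, CXCL3 and CXCL2 and the membrane protein gene PARM1 fell in CAL27, by log2 differences of -1.74, -1.43, -0.68 and -0.90, where AREG and EREG rose. In 1 fit over 12 libraries PARM1 was not called (-0.89, adjusted p = 0.32). CXCL1 rose in HSC3 (0.60, SE 0.074), where AREG and EREG fell, and MTHFD2L, a mitochondrial folate enzyme, fell there (-0.45, SE 0.098), as did CXCL6, on next to no counts with DOX and not called without vehicle replicate 1 or 2 or DOX replicate 3 (adjusted p = 0.054 to 0.13). Reads of the near-identical chemokine genes may be shared among them. At baseline 6 of the 7 neighbours were higher in HSC3 and 1 (PARM1) lower, where 30.6% and 32.3% of all genes were, with MTHFD2L higher by 3.19 and CXCL2 by 4.44 on the log2 scale. The plot of the block shows that neighbours did not share the direction of the ligands throughout.

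**Figure D4:**
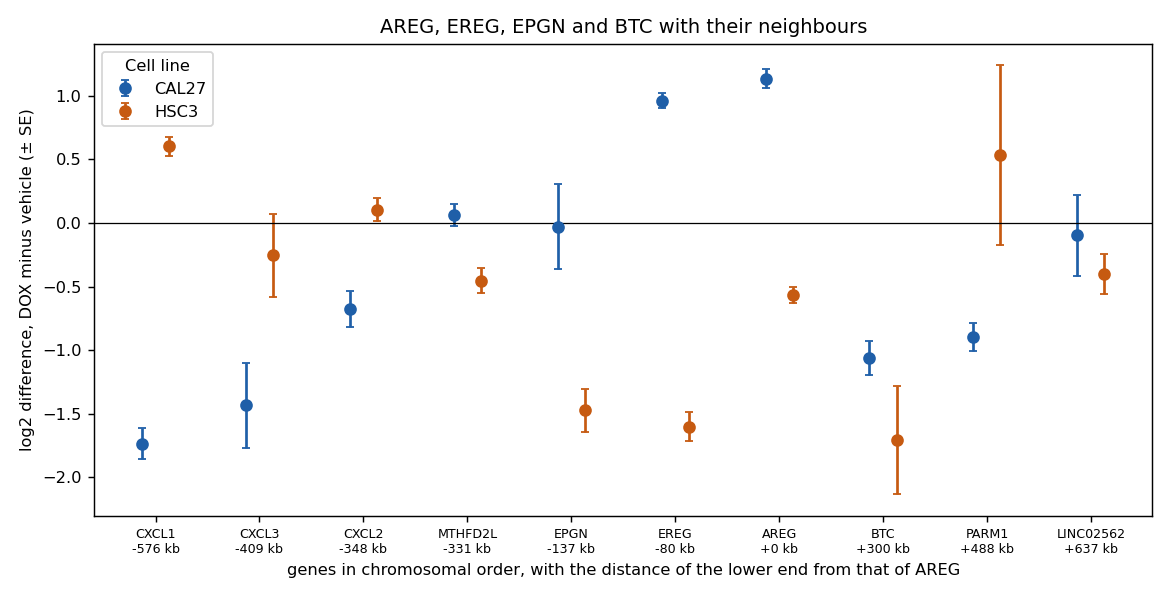
Log2 difference between DOX and vehicle, with SE, for AREG, EREG, EPGN, BTC and their tested neighbours in chromosomal order, with the distance of each from AREG. CXCL1 lies at -1.74 in CAL27 and 0.60 in HSC3, the reverse of AREG at 1.13 and -0.57. CXCL6 is left out, since both CAL27 groups had no count.

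EGFR lies on chromosome 7 at 55019017 to 55211628, + strand. The antisense transcript EGFR-AS1 overlaps 1.17% of its exons and had log2 differences of -0.39 (SE 0.100, edgeR adjusted p = 0.0032) in CAL27 and 0.56 (SE 0.166, edgeR adjusted p = 0.027) in HSC3. The call in CAL27 was lost in 1 fit over 12 libraries (adjusted p = 0.074). The call in HSC3 was lost with the replicate block (0.060) and without vehicle replicate 2 or 3 or DOX replicate 2 or 3 (adjusted p = 0.061 to 0.12). EGFR-AS1 was 5.79 to 11.2 CPM in the means of the 4 groups. Whether the counting used strand is not given in the sources used here, so reads of EGFR and EGFR-AS1 where they overlap may not be told apart. Of the 10 other genes within 500 kb, EGFR-AS1 among them, 2 of 8 tested rose and 2 fell in CAL27, where 22.6% and 21.8% of all genes did. In HSC3, 3 of 10 rose and 2 fell, where 13% and 15.4% of genes did. VOPP1 (0.43, SE 0.038) and ELDR (0.73, SE 0.210) rose in CAL27, with ELDR not called in 1 fit over 12 libraries (adjusted p = 0.58). SEC61G (0.40, SE 0.079) and SEC61G-DT (1.26, SE 0.361) rose in HSC3, with SEC61G-DT not called with the replicate block or without 1 of 4 libraries, vehicle replicate 1, 2 or 3 or DOX replicate 2 (adjusted p = 0.053 to 0.12). LANCL2 fell in HSC3 (-0.75, SE 0.084), and FKBP9P1, a pseudogene whose reads may be shared with its parent gene, fell in both lines.

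ERBB2 lies on chromosome 17 at 39687914 to 39730426, + strand, and 6.93% of its exons lie under MIEN1 and PGAP3 on the opposite strand. Neither passed the test under DOX in either line, with log2 differences of 0.00 and -0.09 in CAL27 and 0.14 and 0.15 in HSC3. Of the 24 other genes within 500 kb, 6 of 21 tested rose and 6 fell in CAL27, where 22.6% and 21.8% of all genes did, so the share is near that of all genes. In HSC3, 1 of 23 (STARD3) rose and 6 fell, where 13% and 15.4% of genes did. The STARD3 call was lost with library totals, with the replicate block and on leaving out each library other than DOX replicate 1 (adjusted p = 0.058 to 0.13). GRB7, the adaptor gene next to ERBB2, fell in HSC3 (-0.41, SE 0.097, edgeR adjusted p = 0.0087) but was not called there without vehicle replicate 1 (-0.33, adjusted p = 0.058), and was -0.10 in CAL27 (edgeR adjusted p = 0.14). ERBB3 lies on chromosome 12 at 56076799 to 56103505, HBEGF on chromosome 5 at 140332843 to 140346603 and TGFA on chromosome 2 at 70447284 to 70554193.

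Among the family members outside the 10, NRG3 had no count in any library and ERBB4 was at most 0.290 CPM in the mean of a group. EGF fell in CAL27, from 3.18 ± 0.173 to 2.11 ± 0.033 CPM (SD, n = 3; -0.60, adjusted p = 0.00034, but 0.66 in 1 fit over 12 libraries), and was at most 0.097 CPM in the means of the HSC3 groups. NRG2 was 0.314 ± 0.092 CPM with vehicle and 0.595 ± 0.232 with DOX in CAL27 (0.92, edgeR adjusted p = 0.027). It was not called in 1 fit over 12 libraries, without vehicle replicate 2 or 3 or without the column numbered 6 (adjusted p = 0.090 to 0.17). Of 7 genes for ligand release, 1 rose and 5 fell in CAL27, where 22.6% and 21.8% of all genes did, and 1 rose and 2 fell in HSC3, where 13% and 15.4% did. Over the alternatives the 5 ranged from 2 to 5. The metalloprotease ADAM12 rose in both lines (0.44, SE 0.052, and 0.64, SE 0.073). FRMD8, which stabilizes the sheddase ADAM17 with its iRhom partners, fell in both (-0.29, SE 0.045, and -0.48, SE 0.105), and the iRhom gene RHBDF2 fell in CAL27 (-0.35, SE 0.057), a call lost in 1 fit over 12 libraries (adjusted p = 0.13). RHBDL2, a rhomboid protease gene, fell in both as well, with log2 differences of -0.99 and -1.55.

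Signal transducers of the receptors were called about as often as all genes in CAL27. Of 29 tested there, 7 rose and 7 fell, where 22.6% and 21.8% of all genes did. Of 28 in HSC3, 2 rose and 7 fell, where 13% and 15.4% did, and no call in either line passed FC>2. In CAL27 the phosphatase PTPN11 (0.44, SE 0.039) and HRAS (0.29, SE 0.062) rose, and the PI3K subunit PIK3R1 (-0.23, SE 0.051) and the docking protein GAB1 (-0.25, SE 0.063) fell. In HSC3 GAB1 rose (0.46, SE 0.082), while the related GAB2 (0.61, adjusted p = 0.038) was not called with the replicate block or without vehicle replicate 2 or 3 or DOX replicate 3 (adjusted p = 0.056 to 0.17). HRAS (-0.57, SE 0.135), PLCG1 (-0.77, SE 0.099), SRC (-0.70, SE 0.066) and PIK3R1 (-0.63, SE 0.079) fell there. HRAS and GAB1 thus changed in opposite directions in the 2 lines, with interaction values of -0.86 (SE 0.150) and 0.72 (SE 0.1095). The rise of HRAS in CAL27 was not called in 1 fit over 12 libraries (adjusted p = 0.057). The median over the list was 0.01 in CAL27 and 0.02 in HSC3.

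Feedback inhibitors of the pathway included several that rose past FC>2. Of 18, 9 rose and 5 fell in CAL27, where 22.6% and 21.8% of all genes did, and 4 of the 9 passed FC>2 (SPRY1, SPRY4, DUSP4 and DUSP5), where 1.31% did. In HSC3, 5 rose and 5 fell, where 13% and 15.4% did. DUSP4, a phosphatase of ERK, rose from 5.33 ± 0.756 to 18.0 ± 2.41 CPM (SD, n = 3) in CAL27 (1.75, SE 0.114) and by 0.29 (SE 0.065) in HSC3. The inhibitor SPRY1 rose in both lines (1.29, SE 0.084, and 1.59, SE 0.105), as did the ERK phosphatase DUSP5 (1.195, SE 0.050, and 0.91, SE 0.071). LRIG3, of a family that acts on the receptors at the membrane, fell in both (-0.67, SE 0.047, and -0.46, SE 0.085). The ubiquitin ligase gene CBLB fell in CAL27 (-0.86, SE 0.049), and CBLC fell in HSC3 (-0.69, SE 0.118) and in CAL27 (-0.29, SE 0.065). The response was lower in HSC3 for 8 of the 18 and higher for 3 (LRIG2, SPRY2 and CBLB) by the interaction test, where 12.3% and 8.25% of all genes were.

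Transcripts that respond to ERK were mostly higher in CAL27 with DOX. Of 21, 13 rose and 3 fell (JUNB, EGR2 and MCL1), where 22.6% and 21.8% of all genes did, with a list median of 0.35 beside -0.01 over all genes, and over the 12 alternatives 10 to 14 rose. FOSL1, an AP-1 subunit, rose from 44.2 ± 4.46 to 189 ± 13.04 CPM (SD, n = 3) in CAL27 (2.09, SE 0.077) and fell from 730.4 ± 28.2 to 600.0 ± 43.2 in HSC3 (-0.29, SE 0.069), a call lost without vehicle replicate 3 (adjusted p = 0.056). HMGA2, a chromatin protein, rose in both lines (1.95, SE 0.041, and 0.56, SE 0.073), and so did CCND1, the gene of cyclin D1 (1.39, SE 0.049, and 0.55, SE 0.058). In HSC3, 6 rose and 5 fell, where 13% and 15.4% of genes did, with a median of 0.03. EGR1, an immediate early gene, rose in CAL27 (0.44, SE 0.044) and fell in HSC3 (-0.47, SE 0.111), the latter not called without vehicle replicate 1 (adjusted p = 0.051). VEGFA (-0.49, SE 0.059) and the survival factor MCL1 (-0.44, SE 0.056) fell in HSC3, and JUNB (-0.31, SE 0.050) fell in CAL27. In 1 fit over 12 libraries JUNB and EGR2 were not called in CAL27 (adjusted p = 0.092 and 0.094), nor was EGR2 without vehicle replicate 1 or the column numbered 5. The response was lower in HSC3 for 11 of the 21 and higher for KLF6 alone, where 12.3% and 8.25% of all genes were. Without HSC3 DOX replicate 1 the counts in HSC3 were 8 and 5.

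At baseline most genes of both lists were higher in HSC3. Of the 21 ERK-responsive transcripts, 18 were higher in HSC3 with vehicle and 1 (FOSB) was lower, where 30.6% and 32.3% of all genes were, and the list median was 1.39 beside -0.12 over all genes. FOSL1 (4.05, SE 0.085) and HMGA2 (4.91, SE 0.075) were among the higher. Of the 18 feedback inhibitors, 12 were higher, with DUSP4 at 3.82 (SE 0.109), and 2 (LRIG3 and CBLB) were lower. The plot of both lines sets the lists beside the receptors and ligands.

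**Figure D5:**
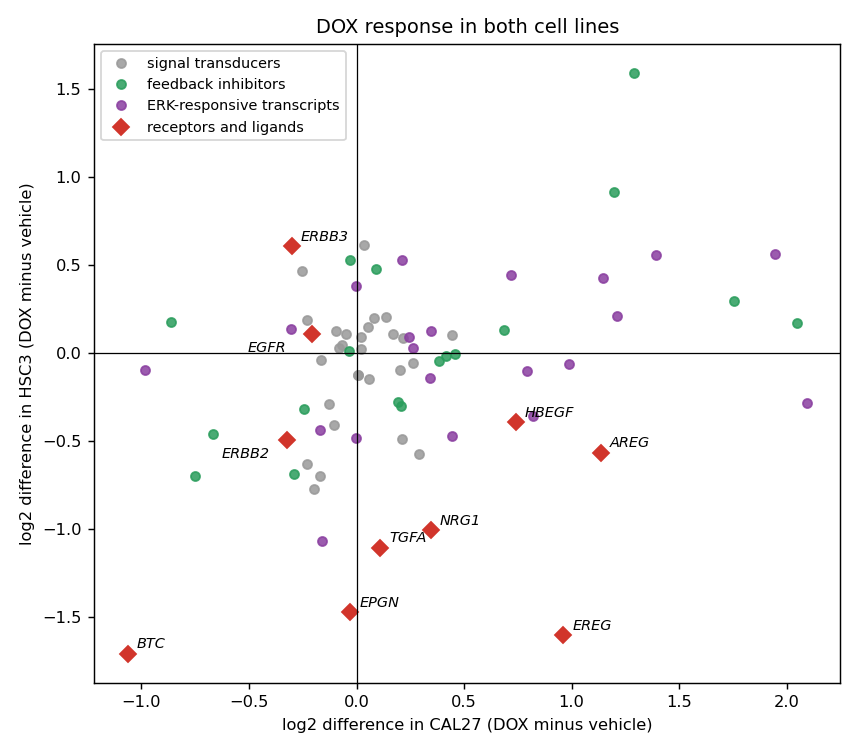
Log2 difference between DOX and vehicle in CAL27 (x axis) and HSC3 (y axis), with a point per gene, for the 10 receptors and ligands (diamonds, named) and for 3 lists of pathway genes (circles). AREG, EREG, HBEGF and NRG1 lie at the lower right, ERBB3 at the upper left, and DUSP4, SPRY1 and DUSP5 lie above 0 on both axes.

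The genes most like each of the 6 members that passed FC>2 under DOX within a line were found by the root mean square difference of their centred mean log2 CPM over the 4 groups (12 libraries), among the 9562 or 9563 others whose mean log2 CPM reached 3. MAP1B was nearest to EREG, at 0.17, with log2 differences of 1.01 in CAL27 and -1.37 in HSC3, and AMIGO2 and CNTN1 followed. KIAA1549L was nearest to AREG but at 0.32, farther than the nearest gene of any other of the 6, and ZNF614 and AJAP1 came next. Their baseline differences were 8.90 and 12.1 against 6.48 for AREG. AJAP1 was not tested in CAL27, and its interaction value was 1.87 against -1.70 for AREG. TGFA and EPGN shared APCDD1L and ADIRF-AS1 among their nearest genes, with CNTN1 for TGFA and CLMP for EPGN, at 0.05 to 0.16. CTSB and CASTOR2 were among the nearest to BTC, at 0.06, though they fell by -0.77 and -1.04 in HSC3 against -1.71 for BTC. The 0.5 CPM added to each level before the log narrows differences at low levels, as for BTC in HSC3 and EPGN in CAL27. NRG1 was nearest to the histone gene H1-5, at 0.06, followed by H3C8 and THAP10, and reads of histone genes may be shared among copies. With 4 group means, such likeness is a description of these libraries.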

How the data were processed

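RNA-seq was performed on 12 libraries of polyadenylated RNA from the tet-MUC1shRNA cells of both lines. Per the labels and the study's methods, libraries were stranded mRNA libraries from triplicate cultures, aligned with STAR to GRCh38. The submitters' processing notes list FastQC 0.11.9, STAR 2.7.9a, Subread 2.0.1 and featureCounts. The authors deposited 1 table of raw counts per gene symbol for each line, not normalized. The strand setting, the treatment of duplicates and the annotation are not given in the sources used here. The CAL27 DOX columns are numbered 4 to 6 and were assigned to their group without a replicate number.

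Counts were analysed in R 4.3.3 with edgeR 4.0.16 (TMM, filterByExpr at 10 counts per gene and 15 in total, robust quasi-likelihood tests, Benjamini-Hochberg over all genes). Each line was fitted alone, and the interaction and the vehicle comparison were fitted over 12 libraries. On simulated counts with 200 changed genes at a log2 change of 1.5, 100% (CAL27), 97.5% (HSC3), 89.5% (interaction) and 97% (baseline) were recovered. Of the 209, 212, 190 and 208 genes called in these, 9, 17, 11 and 14 had not been changed. Smaller changes and larger numbers of changed genes were not simulated. GENCODE v44 matched 38934 of 39368 symbols and gave lengths and coordinates. The estimate of counts per molecule uses the share of genes at 0 among those with an expected count of 8 to 16, calibrated on simulated libraries. Cultures were separate but of 1 line, so p-values measure the spread between these cultures.

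The 10 genes and all lists were chosen with earlier results of these data known. Named were the 10 genes, MUC1, tested genes within 500 kb of EGFR, ERBB2 and the chromosome 4 block (singled out from their counts after values were seen), the 3 nearest genes in pattern (pseudocount 0.5 CPM, with 1 gene not reported here), and per list and line the 2 genes in each direction with the largest change at a mean log2 CPM of at least 3. Names given for counts of 5 or fewer (RHBDL2, GAB2, SPRY4, EGR2, LRIG2, SPRY2, KLF6 and FOSB) and family members outside the 10 were chosen after their values were seen. Alternatives were DESeq2's size factors, library totals, no filter, DESeq2 1.42.0, counts per molecule, 1 fit of all libraries, the replicate block, vehicle libraries alone, MANE Select lengths and each library left out.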

Additional observations from a re-analysis of the deposited data

Results flagged for a closer look

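The DOX response differed between HSC3 and CAL27 by the interaction test (edgeR, adjusted over all genes) for 8 of the 10 genes, where 20.6% of all genes were called. The difference, HSC3 minus CAL27 on the log2 scale, was -2.56 for EREG, -1.70 for AREG, -1.44 for EPGN, -1.35 for NRG1, -1.22 for TGFA and -1.13 for HBEGF. It was 0.91 for ERBB3 and 0.31 for EGFR. For AREG, EREG, HBEGF and NRG1 each DOX library lay above the vehicle libraries in CAL27 and below them in HSC3, and for ERBB3 the reverse. Of all genes, 51.8% in CAL27 and 42.6% in HSC3 had DOX and vehicle groups that did not overlap, in either direction. MUC1 with vehicle was 55.3 ± 2.79 CPM (SD, n = 3) in CAL27 and 1.76 ± 0.186 in HSC3, and its part in these differences was not tested.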

How the results depend on the processing

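Of 600 alternative values for the 10 genes in the 4 comparisons, 588 kept their direction and their side of the threshold, 1 lost its call, 6 gained one and 5 changed sign. The sign changes were EPGN in CAL27, from -0.23 to 0.0777 over all alternatives, and ERBB2 between the vehicle groups, at -0.14 with library totals. With library totals ADAM12 (-0.0828) and CDK12 (-0.15) also changed sign between the vehicle groups. ERBB3 was called lower in HSC3 with vehicle under DESeq2's size factors, library totals, DESeq2 and counts per molecule, which made 2 genes lower in each. ERBB2 was called higher there without HSC3 DOX replicate 1 and with the vehicle libraries alone (adjusted p = 0.049 and 0.013). One fit over 12 libraries called 2746 genes higher and 2337 lower in CAL27, 568 of them lower past FC>2, against 4351, 4203 and 984, and in HSC3 545 higher and 1237 lower past FC>2, against 284 and 793. Leaving out each library in turn gave 1 to 2 members higher and 0 to 1 lower past FC>2 in CAL27, and 3 to 5 lower past FC>2 in HSC3. It gave 1514 to 3268 genes higher in HSC3, the lowest without vehicle replicate 2, and 1336 to 2614 genes with a higher response in HSC3, the highest without HSC3 DOX replicate 1.

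With the replicate number as a block, 1955 genes rose and 2523 fell in HSC3, against 2342 and 2782, and 1 and 8 of the 10 genes were called as without it. Deviations from the group mean had correlations of -0.13, 0.15 and -0.14 for the same numbers, and of -0.23 to 0.26 for unlike ones. With 3 libraries per group these values cannot show whether the numbers mark shared cultures. No paired analysis was possible in CAL27 or for the interaction because the CAL27 DOX columns carry no matching numbers. Depth limits BTC in HSC3, MUC1 in HSC3 with DOX and EPGN in CAL27, where few molecules lie behind the counts.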
